A study of Mus musculus with 6 samples.

Results

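The 10 genes described here belong to the BCL-2 family, which sets whether a cell survives or dies through its mitochondria. They were chosen by name and role and not by a cutoff on their values, though earlier results of these data were known. They are 5 anti-apoptotic genes (Bcl2, Bcl2l1, Mcl1, Bcl2a1b and Bcl2a1d), 2 effectors (Bax and Bak1) and 3 BH3-only genes (Bcl2l11, Bid and Bbc3). All 10 are among the 17831 genes of the count table, and all 10 were among the 13623 genes with enough reads to be tested.

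Anti-apoptotic BCL-2 proteins sit in the outer mitochondrial membrane and hold the effectors BAX and BAK in check. BH3-only proteins respond to stress, to loss of growth factors or to death receptors, and either occupy the groove of the anti-apoptotic proteins or activate the effectors directly. Once active, BAX and BAK open pores through which cytochrome c leaves the mitochondria and caspases are switched on. In lymphocytes, cytokines such as IL-2 and IL-7 keep this balance on the side of survival.

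Group 2 innate lymphoid cells (ILC2s) are tissue lymphocytes that make IL-5 and IL-13, and SIRPα is an inhibitory receptor that binds CD47. The samples were 3 libraries of lung ILC2s from WT mice, labelled CB57BL/6, and 3 from SIRPα KO mice, labelled SIRPalphatm1Ynliu/J, in mice of 6 to 8 weeks. Both genotypes were given 0.5 μg of rmIL-33 by the intranasal route for 3 days, and CD45+, lineage-, CD127+, ST2+ cells were sorted on day 4. Every culture then held rmIL-2 and rmIL-7 at 10 ng/mL, for 18 h by the study's results text and 24 h by its figure legend, and cDNA was made from 10 pg of RNA. The strain is named for a Sirpa allele, no cell-type restriction of that allele is given in the sources used here, and neither is the number of mice behind a library.

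The proteins of the family meet through a short helix called BH3. Its coding sequence is shown for the 7 members in which a leucine codon is followed, with 3 residues between, by glycine and aspartate codons. It is shown because this is the stretch that the 3 classes share. The sequences were copied from GENCODE M21 transcripts on mm10, read 5′ to 3′ on the coding strand, 48 bases from 1 exon each, and capitals mark the leucine and the glycine-aspartate codons.
Bcl2, chr1:106712569-106712616, minus strand: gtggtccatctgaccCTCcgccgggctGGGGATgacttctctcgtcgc
Bcl2l1, chr2:152829691-152829738, minus strand: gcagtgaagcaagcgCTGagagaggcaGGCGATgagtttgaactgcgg
Mcl1, chr3:95659421-95659468, plus strand: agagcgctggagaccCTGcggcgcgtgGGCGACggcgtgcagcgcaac
Bax, chr7:45465991-45466038, minus strand: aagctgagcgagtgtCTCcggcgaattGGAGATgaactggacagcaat
Bak1, chr17:27022525-27022572, minus strand: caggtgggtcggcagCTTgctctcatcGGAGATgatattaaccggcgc
Bcl2l11, chr2:128147135-128147182, plus strand: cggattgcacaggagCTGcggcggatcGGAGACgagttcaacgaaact
Bid, chr6:120897283-120897330, minus strand: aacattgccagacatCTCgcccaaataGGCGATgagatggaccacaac

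The codons of this pattern were not found in Bcl2a1b, Bcl2a1d or Bbc3, which says only that these letters are absent from their coding sequence. Bcl2a1b and Bcl2a1d are near-identical copies on chromosome 9, with a further copy, Bcl2a1a. The first 90 coding bases of the 3 copies are shown because no other 90 coding bases hold more positions that vary among them. Capitals mark these 6 positions. Bcl2a1b and Bcl2a1d carry different bases at only some of them, and further varying positions lie outside this stretch.
Bcl2a1a, chr9:88957051-88957140, plus strand: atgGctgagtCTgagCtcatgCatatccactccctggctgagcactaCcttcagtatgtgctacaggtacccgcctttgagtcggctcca
Bcl2a1b, chr9:89199360-89199449, plus strand: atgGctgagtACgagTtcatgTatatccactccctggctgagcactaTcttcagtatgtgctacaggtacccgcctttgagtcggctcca
Bcl2a1d, chr9:88731630-88731719, minus strand: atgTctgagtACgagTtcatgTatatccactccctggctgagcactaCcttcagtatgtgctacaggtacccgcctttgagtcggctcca

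Over the whole coding sequence of 516 bases, Bcl2a1b and Bcl2a1d differed at 6 positions (98.8% identity) and shared an identical run of 217 bases. How reads that fit several copies were counted is not given in the sources used here, so the separate values of Bcl2a1b and Bcl2a1d are uncertain, and their sum is given beside them. Bcl2a1b also shares 401 exonic bases with Gm29094 on the same strand, which had 21 reads in all.

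The reads counted on genes numbered 13980491 to 19051504 in a library. In the labels, the codes 37 and 37V1 belong to WT replicates 1 and 2, and 44 and 44V1 to replicates 2 and 3 of SIRPα KO, so the 3 libraries of a group may come from 2 samples. The p-values then measure the spread between these libraries, which may in part be technical. Replicates varied more in WT (biological coefficient of variation 38%) than in SIRPα KO (15.2%). Sirpa, the gene the KO strain is named for, was lower in every SIRPα KO library (3.09 ± 1.36 CPM) than in any WT library (6.74 ± 1.87 CPM, SD, n = 3 each), but the difference did not pass the test (adjusted p = 0.115, edgeR). Fold changes followed transcript length over all genes, with a median log2 fold change that went from -0.548 in the shortest decile to 0.469 in the longest. The members' values are therefore also given with both length and GC content of transcripts taken into account, called the corrected values.

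The ILC2 markers Gata3, Il1rl1 and Il5 were abundant in all 6 libraries, and the 13 ILC2 markers summed to 15100 to 16300 CPM in WT against 20900 to 21500 CPM in SIRPα KO. Il5 alone took 9190 ± 661 and 13000 ± 332 CPM of these sums (SD, n = 3 each). Of the 13, Il5, Il2ra and Ptprc were called higher and Id2 (log2 fold change -0.65) and Thy1 (-2.06) lower. Among those not called, Il7r (0.6), Il1rl1 (0.7) and Il13 (0.34) lay higher and Klrg1 (-0.38) and Icos (-0.29) lower, all without overlap. Over all tested genes 11.7% were called, 5.81% lower, and 42.8% did not overlap between groups, which stands beside the counts of each marker list here. The 6 measured B cell markers summed to 216 to 479 CPM in WT against 23.1 to 84.6 CPM in SIRPα KO, and 5 of them were called lower. The 5 NK and ILC1 markers summed to 16.3 to 19.4 CPM in WT against 1.47 to 4.03 CPM in SIRPα KO, with 3 of 4 tested called lower, and Eomes was at 0 in 2 SIRPα KO libraries. The 6 measured T cell markers summed to 18.6 to 23.5 CPM in WT against 4.77 to 5.56 CPM in SIRPα KO, mostly from Cd3g, with Cd4 at 0 in 5 of the 6 libraries. The 7 macrophage and monocyte markers summed to 44.9 to 128 CPM in WT against 78.2 to 120 CPM in SIRPα KO, with Itgam called higher. The 5 mast cell and basophil markers summed to 67.1 to 124 CPM in WT against 165 to 190 CPM in SIRPα KO, without overlap, with none of 3 tested called by edgeR, 2 at an unadjusted p under 0.05 and 1 called by DESeq2. Most of that sum was Kit, and the 2 genes at an unadjusted p under 0.05 moved in opposite directions. Kit lay higher without overlap (log2 fold change 0.92), while Mcpt8 lay lower without overlap (-3.38). Cpa3, also tested, had a log2 fold change of -0.86 with overlapping groups. The higher sum therefore reflects Kit and not the list as a whole. The 4 epithelial markers summed to 44.5 to 69 CPM in WT against 5.94 to 71.4 CPM in SIRPα KO, and Epcam was called lower (log2 fold change -1.18, edgeR adjusted p = 0.0354). The 4 eosinophil markers summed to at most 20.8 CPM and the 2 measured neutrophil markers to at most 0.93 CPM in a library, and both lists overlapped between groups. The sort gated out cells with CD3ε, CD45R/B220, CD335 or CD11b. These shifts run along the same axis as the comparison below, and their part in it was not tested. In bulk RNA, fewer cells of a type and less RNA per cell cannot be told apart.

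Levels of different members were compared per kilobase of the longest annotated transcript, as reads scaled to library size (CPM) divided by that length. In WT, Bax was highest at 388 ± 80.7 CPM per kb (SD, n = 3), followed by Bcl2l1 at 67.6 ± 7.71, Mcl1 at 38.6 ± 8.14 and Bcl2a1d at 34.1 ± 5.1 CPM per kb. Bax and Bcl2l1 did not overlap with each other or with Mcl1, while the ranges of Mcl1 and Bcl2a1d overlapped. Bbc3 (14.7 ± 2.29) and Bcl2 (14.1 ± 2.95) overlapped in the middle of the order, and Bcl2a1b (8.85 ± 1.32) overlapped with Bid (5.78 ± 2.22). Bak1 (2.47 ± 0.831) and Bcl2l11 (1.19 ± 0.563) were the lowest, in CPM per kb. In SIRPα KO the order was the same except that Bid (8.07 ± 0.786) stood above Bcl2a1b (4.86 ± 0.556), and no neighbours in the order overlapped. These levels rest on 1 length per gene, and which transcripts the cells used was not measured.

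Between SIRPα KO and WT, 2 of the 10 members were called at an adjusted p under 0.05, and both were lower: Bcl2a1d, an anti-apoptotic gene, and Bax, an effector. Over all tested genes, 11.7% were called, 5.81% lower and 5.94% higher. The 3 libraries of one group lay wholly above or below those of the other in 6 members, 1 higher (Bcl2l1) and 5 lower (Bcl2a1b, Bcl2a1d, Bax, Bak1 and Bbc3). Over all tested genes the groups did not overlap in 42.8%, with 21.2% lower and 21.6% higher. The median log2 fold change of the members was -0.417, beside -0.0252 for all genes tested.

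**Figure D1:**
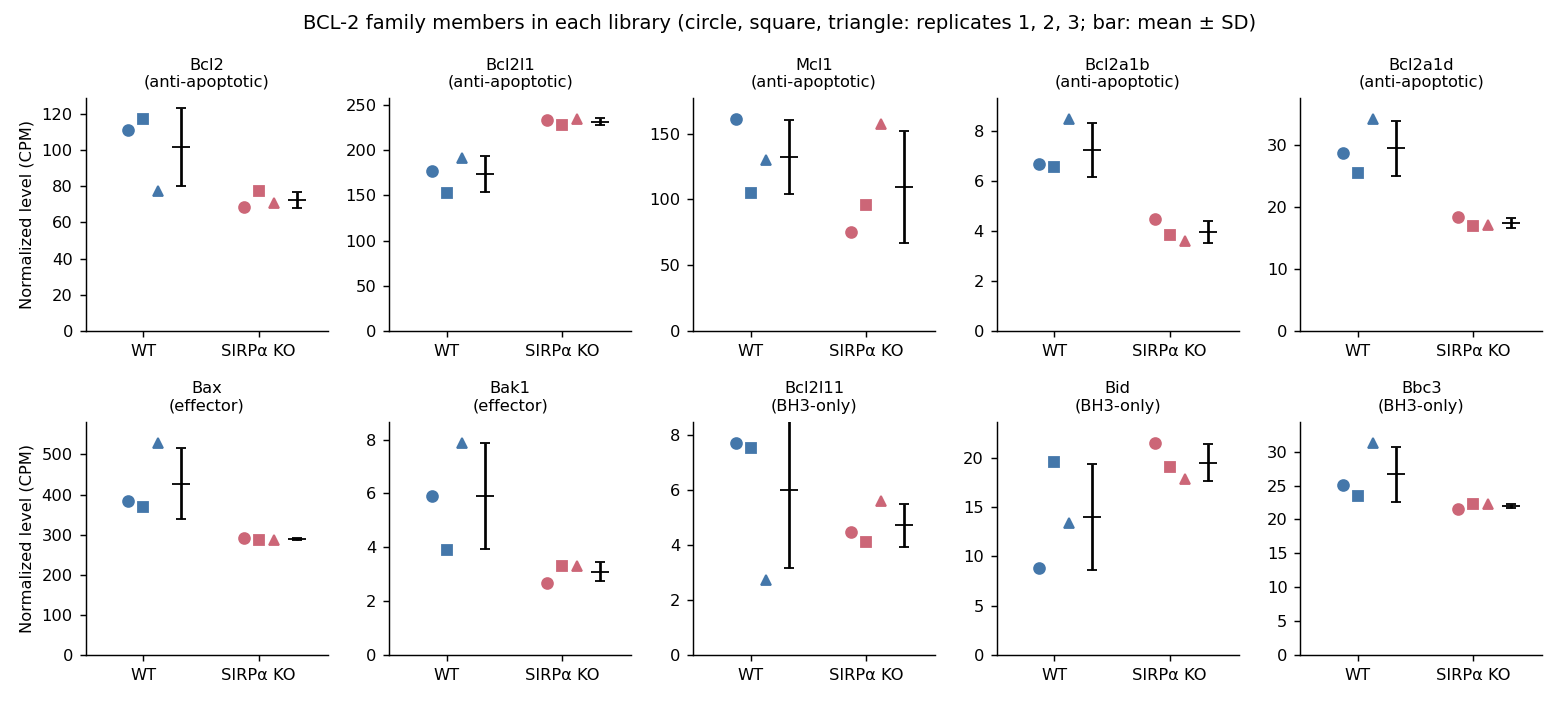
Normalized level (CPM, linear axis from 0) of the 10 members in each library, with WT in blue and SIRPα KO in red. Circles, squares and triangles are replicates 1, 2 and 3, and bars show the mean ± SD of 3 libraries. Bcl2l1 lies higher in every SIRPα KO library, and Bcl2a1d and Bax lie lower in every one.

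Among the anti-apoptotic genes, Bcl2l1 (chr2:152780668-152831728) encodes BCL-XL, which sequesters BH3-only proteins and BAX. Its level was 177, 152 and 191 CPM in WT replicates 1, 2 and 3 and 233, 227 and 234 CPM in SIRPα KO replicates 1, 2 and 3. All SIRPα KO libraries lay above all WT libraries and close together. The log2 fold change was 0.41 (standard error, SE, 0.12, edgeR adjusted p = 0.0578), which did not pass the threshold. It was 0.57 after the length and GC correction (edgeR adjusted p = 0.0189). Without WT replicate 3 the edgeR adjusted p was 0.011, and with any other library left out it was 0.0849 to 0.195. The gene has long and short splice forms with opposite activity, and gene counts do not separate them.

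Bcl2 (chr1:106538178-106714274) is the founding survival gene of the family and holds BIM and BAX in lymphocytes. It measured 111, 117 and 77.2 CPM in WT replicates 1, 2 and 3 and 68.7, 77.3 and 71 CPM in SIRPα KO replicates 1, 2 and 3. WT replicates 1 and 2, which share the code 37, were high, while WT replicate 3 lay within the SIRPα KO range, so the groups overlapped. The log2 fold change was -0.49 (SE 0.17, edgeR adjusted p = 0.102). After the correction it was -0.98 (adjusted p = 0.00358). Before the correction the edgeR adjusted p was 0.00669 without WT replicate 3, which leaves only the WT libraries of code 37. With any other library left out it was 0.177 to 0.295. With 7191 bases Bcl2 has the longest transcript of the members, and its fold change is opposite in sign to the median of the decile with the longest transcripts.

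Bcl2a1d (chr9:88723285-88731914) encodes a copy of A1, a survival protein induced through NF-κB in activated leukocytes. It measured 28.7, 25.4 and 34.1 CPM in WT replicates 1, 2 and 3 and 18.3, 16.9 and 17.1 CPM in SIRPα KO replicates 1, 2 and 3. The groups did not overlap. Bcl2a1d fell by 0.75 on the log2 scale (SE 0.18, edgeR adjusted p = 0.0373). The copy Bcl2a1b (chr9:89199209-89207827) measured 6.67, 6.54 and 8.47 CPM in WT against 4.47, 3.83 and 3.6 CPM in SIRPα KO, also without overlap, with a log2 fold change of -0.86 (SE 0.28, edgeR adjusted p = 0.0811).

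Summed over Bcl2a1a, Bcl2a1b and Bcl2a1d, a sum chosen after the data were seen, the copies measured 36.7, 33.4 and 48.5 CPM in WT against 24, 22.6 and 23.1 CPM in SIRPα KO. The log2 ratio of the group means was -0.77, against -0.75 for Bcl2a1d alone. Both transcripts are short, at 863 bases for Bcl2a1d and 817 for Bcl2a1b, a length at which the median gene was lower too. With the length and GC correction the log2 fold change of Bcl2a1d was -0.43 (adjusted p = 0.114) and that of Bcl2a1b was -0.54 (adjusted p = 0.206), and neither was called. The adjusted p of Bcl2a1d was 0.0596 without WT replicate 1 and 0.147, 0.164 and 0.143 without SIRPα KO replicate 1, 2 or 3.

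The 3 genes with the profile most like that of Bcl2a1d over the 6 libraries, out of 9145 genes whose log2 CPM averaged 3 or more, were Arf5, Dnajc15 and Spint2. Their root mean square distances from it were 0.0288, 0.0313 and 0.0352 on the mean-centred log2 CPM scale. This is a description of likeness over 6 libraries of 2 groups.

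Mcl1 (chr3:95658788-95663176) encodes a short-lived survival protein on which many lymphocytes depend. It measured 161, 105 and 130 CPM in WT replicates 1, 2 and 3 and 75.4, 95.9 and 157 CPM in SIRPα KO replicates 1, 2 and 3. SIRPα KO replicates 1 and 2 lay below every WT library and replicate 3 within the WT range, so the groups overlapped. SIRPα KO replicates 2 and 3, which share the code 44, differed from each other. The log2 fold change was -0.27 (SE 0.28, edgeR adjusted p = 0.523), and the standard error was larger than the change.

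Of the effectors, Bax (chr7:45461697-45466898) encodes the pore protein that moves from the cytosol to mitochondria when activated. It measured 384, 368 and 529 CPM in WT replicates 1, 2 and 3 and 292, 287 and 287 CPM in SIRPα KO replicates 1, 2 and 3. The groups did not overlap, the SIRPα KO libraries lay within a narrow range, and WT replicate 3 was the highest. Bax fell by 0.56 on the log2 scale (SE 0.15, edgeR adjusted p = 0.0484). After the length and GC correction its log2 fold change was 0.19 (adjusted p = 0.325), so the direction turned and the call was lost. The adjusted p was 0.0564 without WT replicate 1 and 0.176, 0.181 and 0.16 without SIRPα KO replicate 1, 2 or 3. The longest Bax transcript has 1100 bases with a GC content of 63.5%.

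Bak1 (chr17:27019810-27029009), whose protein resides in the outer membrane, was low, at 5.92, 3.91 and 7.88 CPM in WT replicates 1, 2 and 3 and 2.68, 3.31 and 3.29 CPM in SIRPα KO replicates 1, 2 and 3. The groups did not overlap, though they came close between WT replicate 2 and the SIRPα KO libraries. The log2 fold change was -0.93 (SE 0.36, edgeR adjusted p = 0.122) on 42 to 119 reads per library.

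The BH3-only genes made no calls. None of the 3 had an unadjusted p under 0.05 in edgeR, and DESeq2 called none. Bid (chr6:120891930-120916853), whose protein is cut by caspase-8 and so links death receptors to mitochondria, measured 8.86, 19.6 and 13.4 CPM in WT replicates 1, 2 and 3 and 21.5, 19.1 and 17.8 CPM in SIRPα KO replicates 1, 2 and 3. WT replicate 2 lay within the SIRPα KO range. The log2 fold change was 0.48 (SE 0.29, edgeR adjusted p = 0.288). Bid shares 628 exonic bases with Bcl2l13 on the opposite strand, which had 8415 reads in all, and counting by strand is not stated, so reads in that stretch cannot be assigned to one gene.

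Bbc3 (chr7:16308393-16318205) encodes PUMA, a p53 target that binds all anti-apoptotic members. It measured 25.1, 23.5 and 31.3 CPM in WT against 21.6, 22.2 and 22.2 CPM in SIRPα KO, in replicate order. The groups did not overlap, but the gap was small, with a log2 fold change of -0.27 (SE 0.18, edgeR adjusted p = 0.315). After the correction it was 0.31 (adjusted p = 0.291), with the sign turned.

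Bcl2l11 (chr2:128126038-128162547) encodes BIM, which FOXO factors induce when growth factor signals are lost. It measured 7.71, 7.54 and 2.71 CPM in WT against 4.47, 4.09 and 5.58 CPM in SIRPα KO, in replicate order. The SIRPα KO libraries lay inside the WT range, since WT replicates 1 and 2 were high and WT replicate 3 was low. The log2 fold change was -0.34 (SE 0.43, edgeR adjusted p = 0.607) on 41 to 134 reads per library.

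**Figure D2:**
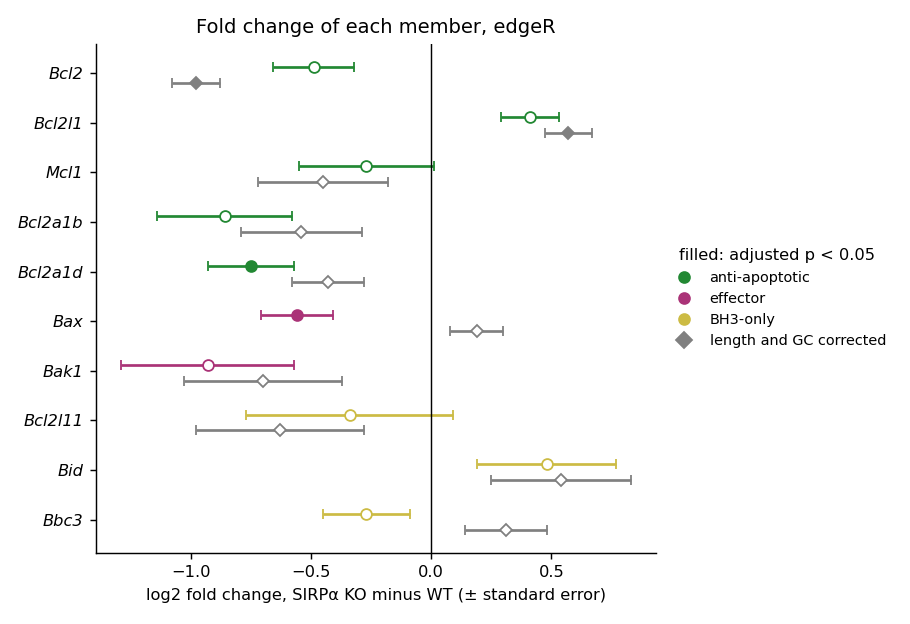
Log2 fold change of each member, SIRPα KO minus WT, with its standard error, from edgeR. Circles in class colours are the values on counts as deposited, grey diamonds those corrected for transcript length and GC content, and filled marks have an adjusted p under 0.05. Bcl2a1d and Bax are filled before the correction, Bcl2 and Bcl2l1 after it, and Bax and Bbc3 change sign.

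The length and GC correction left 2 members called, but not the same ones. Bcl2 was lower and Bcl2l1 higher, while Bcl2a1d and Bax were no longer called. Over all tested genes 8.83% were called under it. The 4 members with the shortest transcripts (Bcl2a1b, Bcl2a1d, Bax and Bbc3) all measured lower before the correction, as did the median gene of that length.

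**Figure D3:**
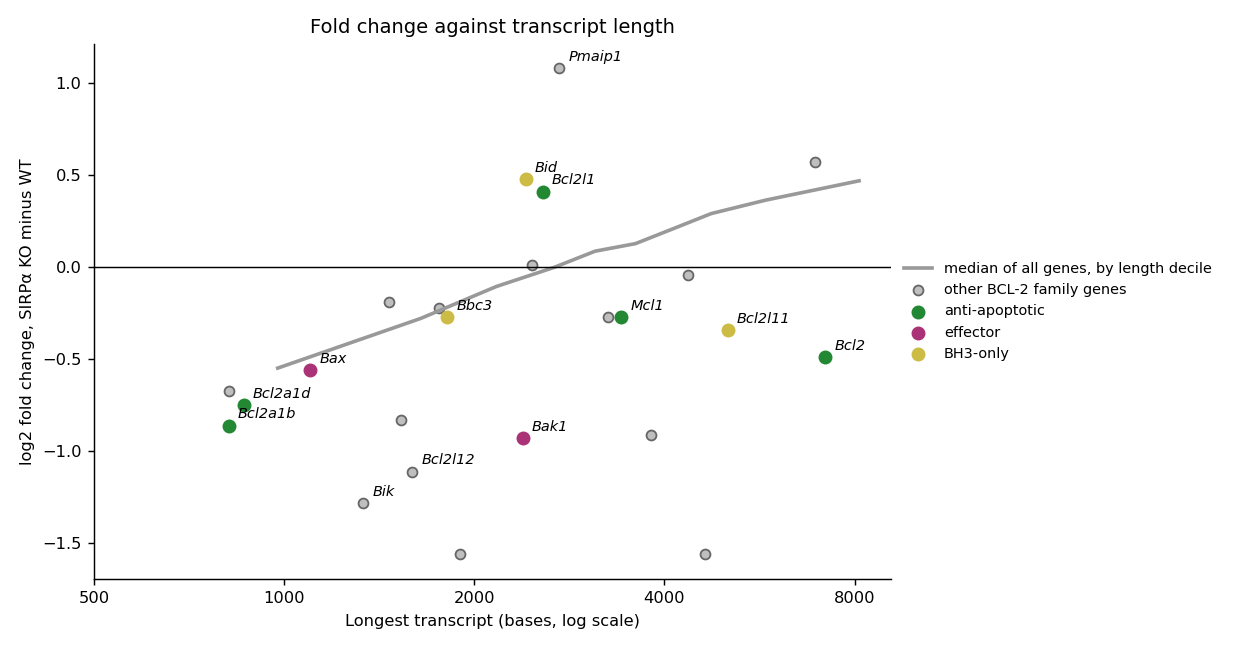
Log2 fold change (SIRPα KO minus WT) against the length of the longest transcript (bases, log axis). Coloured points are the members by class, grey points the other BCL-2 family genes tested, and the grey line joins the median of all genes in each length decile, from -0.548 to 0.469. Bax lies near the line, Bcl2 far below it and Bcl2l1 above it.

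DESeq2 called 4 members, Bcl2l1 higher and Bcl2a1b, Bcl2a1d and Bax lower, and 26.9% of all genes it tested. Without WT replicate 3, edgeR called Bcl2 lower too, together with Bcl2l1, Bcl2a1d and Bax, and 18.4% of all genes. Without WT replicate 2 it called Bcl2a1d and Bax again and 16.3% of all genes, and without WT replicate 1 no member and 7.89% of all genes, with 4 members and 31.7% of all genes at an unadjusted p under 0.05. Without SIRPα KO replicate 1, 2 or 3 it called no member, and 0.112%, 0.12% and 0.12% of all genes, and 4 members had an unadjusted p under 0.05 each time, beside 21%, 20.7% and 22.5% of all genes. With libraries of one code summed, which leaves 2 against 2, it also called no member and 0.0686% of all genes, with 3 members and 23.0% of all genes at an unadjusted p under 0.05. None of the genes named here as called, in any list, kept its call when a SIRPα KO library was left out or libraries of one code were summed.

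**Figure D4:**
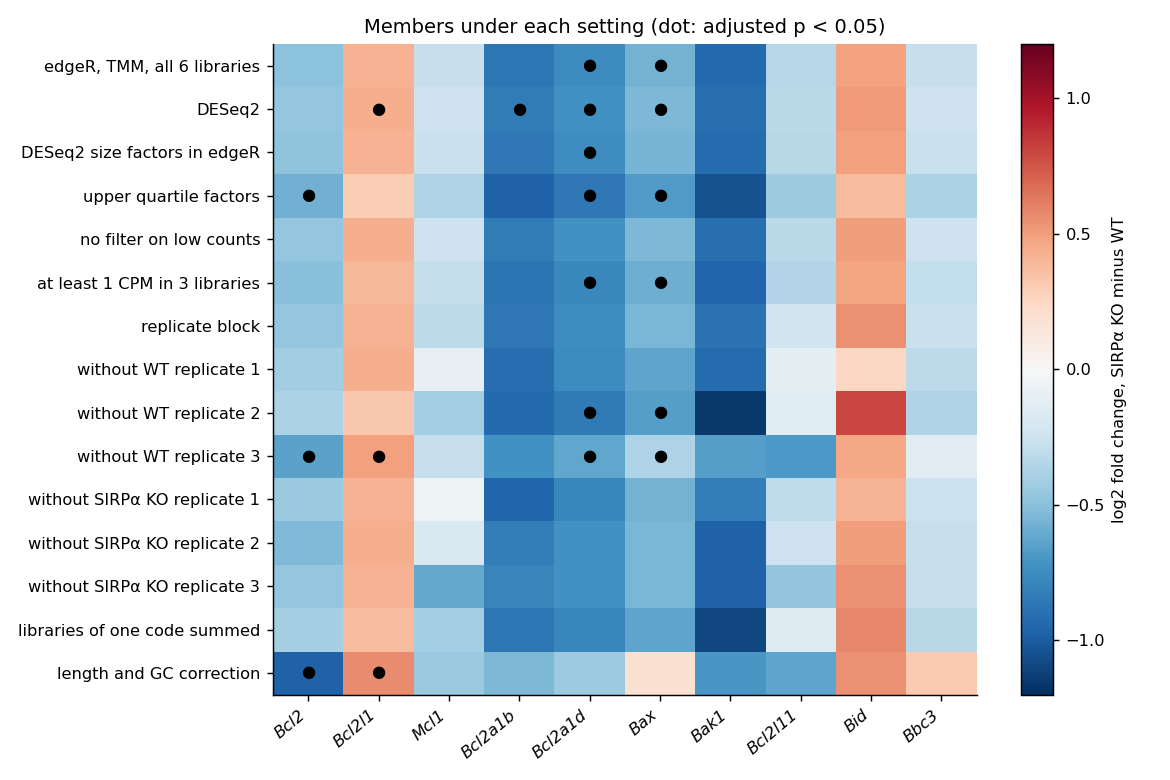
Log2 fold change (SIRPα KO minus WT) of the 10 members in columns under each setting in rows, from blue (lower) to red (higher), with dots at an adjusted p under 0.05. The first row is the fit reported here, with dots for Bcl2a1d and Bax. Sign changes appear for Bax and Bbc3 in the last row alone.

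The balance of the 3 classes was taken per library, from CPM per kb summed over the members of a class. The anti-apoptotic genes summed to 173, 144 and 173 CPM per kb in WT replicates 1, 2 and 3 and 149, 151 and 171 in SIRPα KO replicates 1, 2 and 3, and these overlapped. The effectors summed to 352, 336 and 484 CPM per kb in WT and 267, 262 and 263 in SIRPα KO, without overlap and 0.675 times as high in SIRPα KO. The BH3-only genes summed to 19, 22.5 and 23.4 CPM per kb in WT and 21.7, 21 and 20.7 in SIRPα KO, which overlapped.

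Bax made up 99.3% to 99.6% of the effector sum in every library, so the effector sum follows Bax. Within the anti-apoptotic sum, Bcl2l1 took 39.9% to 43% in WT and 53.3% to 60.8% in SIRPα KO. Bcl2a1d took 19.2% to 22.8% in WT and 11.6% to 14.3% in SIRPα KO, Mcl1 21.4% to 27.2% and 14.8% to 26.8%, and Bcl2 6.2% to 11.3% and 5.77% to 7.1%. The anti-apoptotic total thus overlapped between groups while the share of Bcl2l1 in it lay higher in every SIRPα KO library. In the BH3-only sum, Bbc3 held the largest share, 57.4% to 73.9% in WT and 54.8% to 59.1% in SIRPα KO.

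The log2 ratio of anti-apoptotic to effector sums was -1.02, -1.23 and -1.48 in WT replicates 1, 2 and 3 and -0.84, -0.79 and -0.62 in SIRPα KO replicates 1, 2 and 3. Every SIRPα KO library was higher, with means of -1.25 ± 0.23 in WT and -0.75 ± 0.12 in SIRPα KO (SD, n = 3 each). The difference was 0.49, larger than the SD of either group. After the length and GC correction the means were -0.91 ± 0.31 and -1.08 ± 0.21, the groups overlapped, and the difference was -0.17.

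The log2 ratio of anti-apoptotic to BH3-only sums was 2.92 ± 0.26 in WT and 2.89 ± 0.14 in SIRPα KO (SD, n = 3 each), a difference of -0.02 with overlapping libraries. Effector to BH3-only sums had a log2 ratio of 4.21, 3.9 and 4.37 in WT and 3.62, 3.64 and 3.66 in SIRPα KO, without overlap, with a difference of -0.52. After the correction that difference was -0.17. Every SIRPα KO library still lay below every WT library, but narrowly, with 3.84 in SIRPα KO replicate 2 beside 3.86 in WT replicate 2. The class ratios are scores over chosen genes and were not tested.

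**Figure D5:**
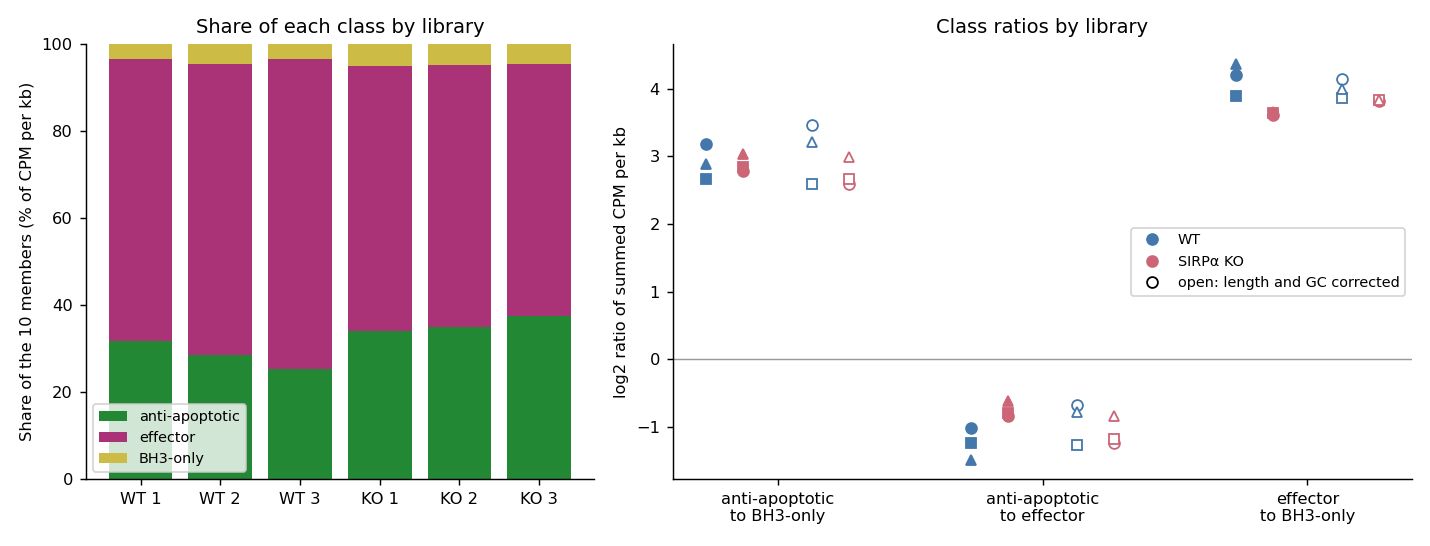
Left, share of each class in the summed CPM per kb of the 10 members (%) for each library. Right, log2 ratio of summed CPM per kb between classes, with WT in blue, SIRPα KO in red, symbols for replicates 1, 2 and 3 (circle, square, triangle) and open symbols after the length and GC correction. The effector share is 64.7% to 71.1% in WT and 57.8% to 61% in SIRPα KO, and the anti-apoptotic to effector ratio separates the groups for filled symbols and overlaps for open ones.

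Outside the 10 members, 14 further BCL-2 family genes were tested, and 3 were called. The share called over all genes tested, 11.7%, stands beside this count and those of the lists below. Pmaip1, the gene of the BH3-only protein NOXA, which binds MCL-1, measured 28.8, 22 and 20.8 CPM in WT against 43.9, 60.5 and 47.6 CPM in SIRPα KO, and rose by 1.08 on the log2 scale (edgeR adjusted p = 0.0201). It was called after the correction too, at 0.88 (adjusted p = 0.0295). Bik, another BH3-only gene, measured 18, 20.1 and 34.4 CPM in WT against 11.3, 9.24 and 9.24 CPM in SIRPα KO, and fell by 1.28 (adjusted p = 0.0308). Bcl2l12, a BCL-2 related gene, fell by 1.11 (adjusted p = 0.0374). After the correction Bik (adjusted p = 0.0864) and Bcl2l12 (adjusted p = 0.0872) were no longer called, while Bnip3l, a BH3-related gene of mitophagy, was called lower with it (-0.56, adjusted p = 0.0379, and -0.27, adjusted p = 0.212, before it).

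The other BH3-only gene of high level, Bad, whose protein is inactivated by survival kinases, had a log2 fold change of -0.83 (adjusted p = 0.0505). It was called lower by DESeq2, under upper quartile scaling, with the filter at 1 CPM in 3 libraries, and in edgeR without WT replicate 2 or 3. Neither of the 2 other anti-apoptotic genes tested, Bcl2l2 (-0.91, adjusted p = 0.154) and Bcl2a1a (-0.67, adjusted p = 0.512), was called by edgeR or DESeq2, and Bcl2l2 alone had an unadjusted p under 0.05. Bok, an effector relative, had a log2 fold change of -0.19 (adjusted p = 0.743), was not called by DESeq2 and had no unadjusted p under 0.05.

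Of 14 genes for partners at the outer membrane and the steps after release, 1 was called. Apaf1, the scaffold on which cytochrome c activates caspase-9, measured 92.6, 104 and 65.9 CPM in WT against 205, 212 and 153 CPM in SIRPα KO, and rose by 1.12 on the log2 scale (edgeR adjusted p = 0.0189), and by 0.65 after the correction (adjusted p = 0.0275). Cycs, the gene of cytochrome c, measured 839 ± 95.9 CPM in WT against 715 ± 24.1 CPM in SIRPα KO (SD, n = 3 each, edgeR adjusted p = 0.18). Vdac2, which anchors BAK, had a log2 fold change of -0.14 (adjusted p = 0.354). Vdac3 was called lower after the correction alone (-0.56, adjusted p = 0.0492). The list's median log2 fold change was -0.115.

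Of 11 genes that act on the turnover or processing of MCL-1, BIM and BID, 2 were called higher and 2 lower. Usp9x, a deubiquitinase that stabilizes MCL-1, measured 81.7, 85.9 and 54.6 CPM in WT against 210, 246 and 203 CPM in SIRPα KO. It rose by 1.57 on the log2 scale (edgeR adjusted p = 0.0083) and by 0.93 after the correction (adjusted p = 0.00502). Mapk3, the gene of a kinase that marks BIM for degradation, fell by 0.93 (adjusted p = 0.0144), and had an adjusted p of 0.0464 after the correction. Tpt1, an MCL-1 partner, fell by 0.66 (adjusted p = 0.0454), and was not called after the correction (adjusted p = 0.179).

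Of 9 regulators and markers of p53 and FOXO activity, 1 was called higher and 2 lower. The p53 target Cdkn1a fell by 0.59 on the log2 scale (edgeR adjusted p = 0.0215), while the p53 target Ccng1 rose by 0.72 (adjusted p = 0.0312). Ddit3, the stress factor CHOP that can induce Bcl2l11 and Bbc3, measured 39.5, 39.7 and 41.6 CPM in WT against 15.9, 16.9 and 18.7 CPM in SIRPα KO, and fell by 1.23 (adjusted p = 0.00958). Ccng1 was not called after the correction (adjusted p = 0.0576). Trp53 itself had a log2 fold change of -0.02 (adjusted p = 0.904).

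Of 11 genes for the IL-2 and IL-7 receptors and STAT5, through which the culture cytokines reach Bcl2 and Bcl2l1, 1 was called. Il2ra, the α chain of the high-affinity IL-2 receptor, measured 2060, 2050 and 1410 CPM in WT against 3470, 3460 and 3420 CPM in SIRPα KO. It rose by 0.91 on the log2 scale (edgeR adjusted p = 0.0154) and by 0.54 after the correction (adjusted p = 0.00376). Il2rg, the shared receptor chain, had a log2 fold change of -0.28 (adjusted p = 0.117), Jak1, the kinase bound to the IL-7 receptor and IL-2 receptor β chains, of 0.6 (adjusted p = 0.101), and Il2rb of -0.13 (adjusted p = 0.5). Pim2, a survival kinase downstream of STAT5, had a log2 fold change of 0.32 (adjusted p = 0.0881) and was called higher after the correction (0.56, adjusted p = 0.0141). Il7r, the IL-7 receptor α chain, lay higher in every SIRPα KO library, with a log2 fold change of 0.6 (edgeR adjusted p = 0.0644). Without overlap, 5 of the 11 genes lay higher and 2 lower, beside 21.6% and 21.2% of all tested genes. The list's median log2 fold change was 0.322.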

How the data were processed

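The authors sequenced cDNA amplified from sorted, cultured ILC2s, aligned it with STAR to mm10 with GENCODE M21 and deposited estimated counts (expected counts) per gene, not scaled for library size. The submitters' processing notes name STAR 2.7.8 and Partek 10.0, and the paper's methods name other versions. Whether strand was used is not given in the sources used here. Here each value was rounded to the nearest whole count. Genes passing filterByExpr of edgeR (a minimum of 10 reads at median library size, 15 in total) were scaled by TMM and tested with edgeR's quasi-likelihood test on genotype, with Benjamini-Hochberg adjustment over all genes tested. The standard error came from the F statistic, and an adjusted p under 0.05 was the threshold. Length was that of the longest transcript. The correction for length and GC content described every library's deviations by splines (5 degrees of freedom each) and used it as an offset. The members, the lists and the alternatives were chosen with earlier results of these data known. The text names all 10 members, the called genes and up to 3 further genes of highest level of each other list, and the 3 genes most like the member with the smallest adjusted p. Some further listed genes are named beside these. Copies were found with BLAST+ 2.17.0. R 4.3.3, edgeR 4.0.16, limma 3.58.1, DESeq2 1.42.0, Python 3.11.15 and matplotlib 3.10.9 were used, and the fits were tested on simulated data. The alternatives were DESeq2, other scalings and filters, thresholds, a replicate block, summed codes, the correction and leaving out each library. The single-cell data of the study were not analysed here. The result for 1 called gene of the turnover list is not reported here.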

Additional observations from a re-analysis of the deposited data

How the results depend on the processing

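The count of 2 called members was 4 with DESeq2, 1 with DESeq2's size factors in edgeR, 0 without a filter on low counts (edgeR, 6 at an unadjusted p under 0.05), 0 with libraries of one code summed, 4 at an adjusted p under 0.10 and 6 at an unadjusted p under 0.05, and 0 to 4 when each library was left out in turn. The count of 3 other family genes was 6 with DESeq2, 0 with codes summed (5 at an unadjusted p under 0.05), 6 at an adjusted p under 0.10, 7 at an unadjusted p under 0.05, and 0 to 5 with each library left out. Over all genes, the share called was 26.9% with DESeq2, 11.8% with its size factors, 6.46% without a filter, 22.4% at an adjusted p under 0.10 and 32% at an unadjusted p under 0.05. Fewer samples enter the fits with codes summed or a library left out. The share called was 7.89%, 16.3% and 18.4% without WT replicate 1, 2 or 3, and 0.112% to 0.12% without a SIRPα KO library. The cause of these changes was not tested. Same-numbered WT and SIRPα KO libraries correlated at -0.139, 0.183 and 0.0306 in their deviations, and differently numbered ones at -0.263 to 0.229. With so few libraries these values cannot show whether same-numbered libraries form pairs. With a replicate block edgeR called 0 members (5 at an unadjusted p under 0.05) and 1 other family gene. Over all genes 8.21% were called with it, and 29.3% had an unadjusted p under 0.05. With the correction for length and GC content the log2 fold changes of Bax (0.185) and Bbc3 (0.31) reversed, and the class differences were -0.342 for anti-apoptotic to BH3-only, -0.169 for anti-apoptotic to effector and -0.173 for effector to BH3-only. As means of log2 values in place of sums they were -0.415, 0.311 and -0.727. With the other family genes added, anti-apoptotic to BH3-only was 0.187 and effector to BH3-only -0.289, and without Bcl2a1b and Bcl2a1d anti-apoptotic to effector was 0.682. Of 140 alternative values for the members' log2 fold changes, 115 kept direction and side of the threshold, 16 lost a call, 7 gained one and 2 reversed. All 16 lost calls were of Bcl2a1d and Bax, the 2 members called, which had 14 alternatives each. Bax also lost its call where its direction reversed. Most of the 115 values belong to members that were not called to begin with. Upper quartile scaling moved the median of all genes to -0.125. The 3 libraries of a group, perhaps 2 samples, limit what can be called, as do 41 to 134 reads on Bcl2l11.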

Other observations

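The ratio of single survival genes to Bax depends on which gene is taken and on the length correction. For Bcl2l1 to Bax, the log2 ratio of reads was -1.12, -1.27 and -1.47 in WT replicates 1, 2 and 3 and -0.33, -0.34 and -0.30 in SIRPα KO replicates 1, 2 and 3, and it lay higher in every SIRPα KO library by 0.96 on average. After the correction for length and GC content it was still higher in every SIRPα KO library, by 0.38. For Bcl2 to Bax, the log2 ratio of reads overlapped between groups, with a difference of 0.08, and after the correction it lay lower in every SIRPα KO library, by -1.17. Reads in Bcl2 against reads in Bcl2l1 gave log2 ratios of -0.68, -0.38 and -1.31 in WT and -1.76, -1.55 and -1.72 in SIRPα KO, without overlap. These ratios were chosen after the data were seen and were not tested.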
